A study of Rattus norvegicus with 12 samples.

Results

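Neurexins, neuroligins and cerebellins join the 2 sides of a synapse, and 8 of these genes were followed here: Nrxn2, Nrxn3, Nlgn1, Nlgn2, Nlgn3, Cbln1, Cbln2 and Cbln4. They were chosen by gene name, not by a measured value, but with earlier results of these data known. They are 8 of the 22431 genes in the deposited table. All 8 passed the filter on low values, a 12-library average of 0.5 FPKM or more, and were among the 14170 genes tested. The tissue was prefrontal cortex of wild-type rats in early adolescence, sequenced as poly(A) RNA with 1 library per animal. There were 4 animals with postnatal oxycodone exposure (PNO), 4 with in utero oxycodone exposure (IUO) and 4 saline controls. Oxycodone, an opioid agonist, was given by oral gavage at 15 mg/kg, up to postnatal day 21 at the latest. The labels do not tie a dosing window to a group. Neither sex nor strain is stated. Each group came from 2 dams with 2 animals each, and the labels do not say which animals were littermates, so littermates enter the tests as if unrelated and the p values can be too low.

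Neurexins sit in the presynaptic membrane and bind neuroligins, which sit in the postsynaptic membrane, and this bond helps to set what kind of synapse forms and how strong it is. Cerebellins are small secreted proteins that bridge neurexins to the delta glutamate receptors, such as Grid1, or to other postsynaptic partners. The best known case is Cbln1 in the cerebellum, where it holds granule cell synapses onto Purkinje cells. Neurexin genes make long alpha and short beta forms and many splice variants that choose between these partners. The deposited values are 1 per gene and add all such forms together.

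Depth was similar across libraries, at 49227533 to 60672246 counts, and the lowest count of any member in any library was 194, for Cbln4 in saline 2. Defining markers of cortical excitatory neurons were present: the 13 genes of that list summed to 3921 to 4618 CPM in PNO, 3786 to 4649 CPM in IUO and 3707 to 4746 CPM in saline libraries (CPM, counts scaled to a common library total). Several libraries stood apart. Olfactory bulb markers were raised in PNO 1, PNO 3, PNO 4 and IUO 3, with a mean of 4.12 to 4.87 log2 CPM over 11 genes in these libraries and 1.70 to 2.32 in the other 8. Striatal markers were raised in PNO 2, IUO 1, IUO 2 and saline 2. IUO 4 had the lowest mean correlation with its own group, a Pearson's r of 0.961 across tested genes, against 0.968 to 0.979 for the other 11 libraries. Because whole tissue was sequenced, fewer cells of a type and less RNA per cell cannot be told apart.

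Levels per transcript length (FPKM) spanned a wide range, and the order was led by Nrxn2 in all 3 groups. Nrxn2 averaged 63.4 ± 9.03 FPKM in PNO, 57.9 ± 11.7 FPKM in IUO and 63.5 ± 15.7 FPKM in saline (SD, n = 4 each). At the other end, Cbln4 averaged 1.81 ± 0.209 FPKM in PNO, 1.61 ± 0.304 FPKM in IUO and 1.46 ± 0.515 FPKM in saline. In saline the order was Nrxn2, Nlgn2, Cbln2, Nlgn3, Nrxn3, Cbln1, Nlgn1 and Cbln4. From Nrxn2 down to Nrxn3 no gene overlapped with the next one in its range over saline libraries. From Nrxn3 downwards each gene overlapped with the next, so the order of the 4 lowest genes is within the spread between saline libraries. In PNO Nlgn3 and Cbln2 overlapped (20.6 ± 2.12 and 20.4 ± 2.82 FPKM), whereas in saline libraries Cbln2 lay above Nlgn3 (24.2 ± 1.57 and 14.2 ± 1.82 FPKM).

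**Figure D1:**
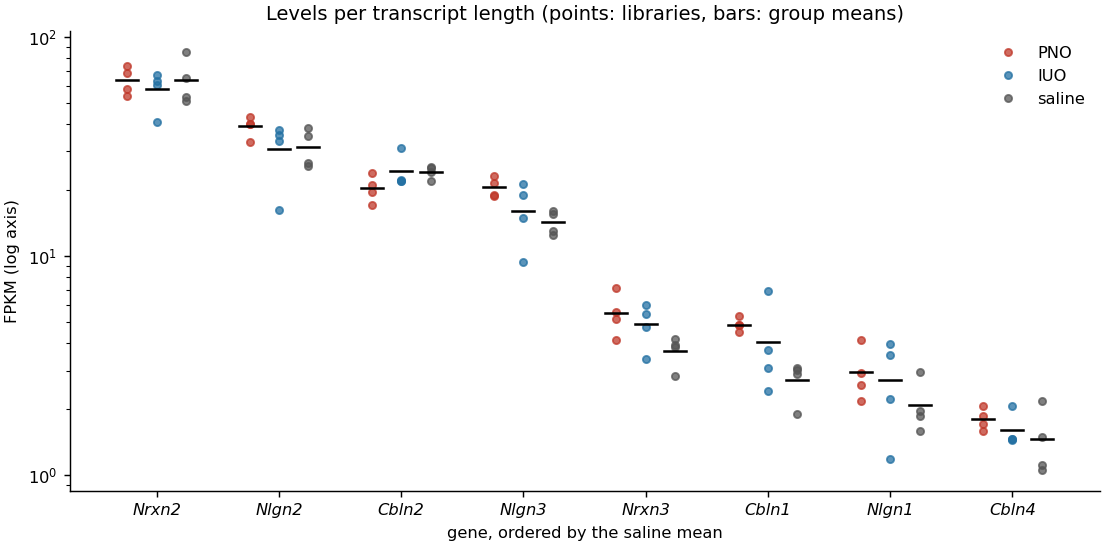
Level of each gene in FPKM on a log axis, with 1 point per library and a bar at the mean of the 4 PNO, IUO or saline libraries. Nrxn2 is highest in each group, and the 4 genes on the right lie at or below 7.16 FPKM in every library.

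Within each family 1 gene gave most of the summed FPKM. Nlgn2, the neuroligin of inhibitory synapses, gave 62.3 ± 4.73% of the neuroligin sum in PNO, 62.0 ± 3.11% in IUO and 65.7 ± 1.63% in saline. Nlgn3, which is found at both excitatory and inhibitory synapses, gave 32.9 ± 3.39%, 32.7 ± 2.88% and 29.9 ± 1.70% in PNO, IUO and saline. Nlgn1, the neuroligin of excitatory synapses, gave the small remainder. Cbln2 gave 75.2 ± 2.47% of the sum of the 3 cerebellins in PNO, 81.1 ± 7.28% in IUO and 85.3 ± 0.578% in saline. Its share was lower in all 4 PNO libraries (72.4% to 78.4%) than in all 4 saline libraries (84.4% to 85.7%). Cbln1 gave 18.1 ± 2.36% of that sum in PNO, 13.5 ± 6.36% in IUO and 9.53 ± 1.58% in saline, and its PNO and saline libraries likewise did not overlap. Shares of 1 sum depend on each other, so the partings of Cbln2 and Cbln1 are not separate results. IUO 3 had the lowest Cbln2 share of the 12 libraries (70.9%), and bulb markers were raised there as in PNO 1, PNO 3 and PNO 4. In PNO 2, where they were not raised, the Cbln2 share was 72.4%. These shares are ratios of deposited FPKM values and were not tested. How often such ratios part for other genes was not counted.

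None of the 8 genes passed the test in any comparison. The edgeR quasi-likelihood test (Benjamini-Hochberg adjustment over all tested genes, threshold 0.05) called 0 of 8 for PNO against saline, for IUO against saline and for PNO against IUO. It called 0.0% of all tested genes in each comparison too. DESeq2 called 0 of the 8 and 117, 11 and 8 of all tested genes in these 3 comparisons, which is 0.826%, 0.0776% and 0.0565%. With limma on log2(FPKM + 0.5), 0 of the 8 were called in each comparison, beside 0.00706% of all tested genes for PNO against saline and 0.0% for both others. At an unadjusted p under 0.05, edgeR gave 3 of the 8 genes in PNO against saline (Nrxn3, Nlgn3 and Cbln1, all higher), where 11.0% of all tested genes reached that level and 6.82% did so as higher, and 0 of 8 in IUO against saline (4.02% of all tested genes, 2.31% as higher) and in PNO against IUO (6.73%, 3.06% as higher).

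**Figure D2:**
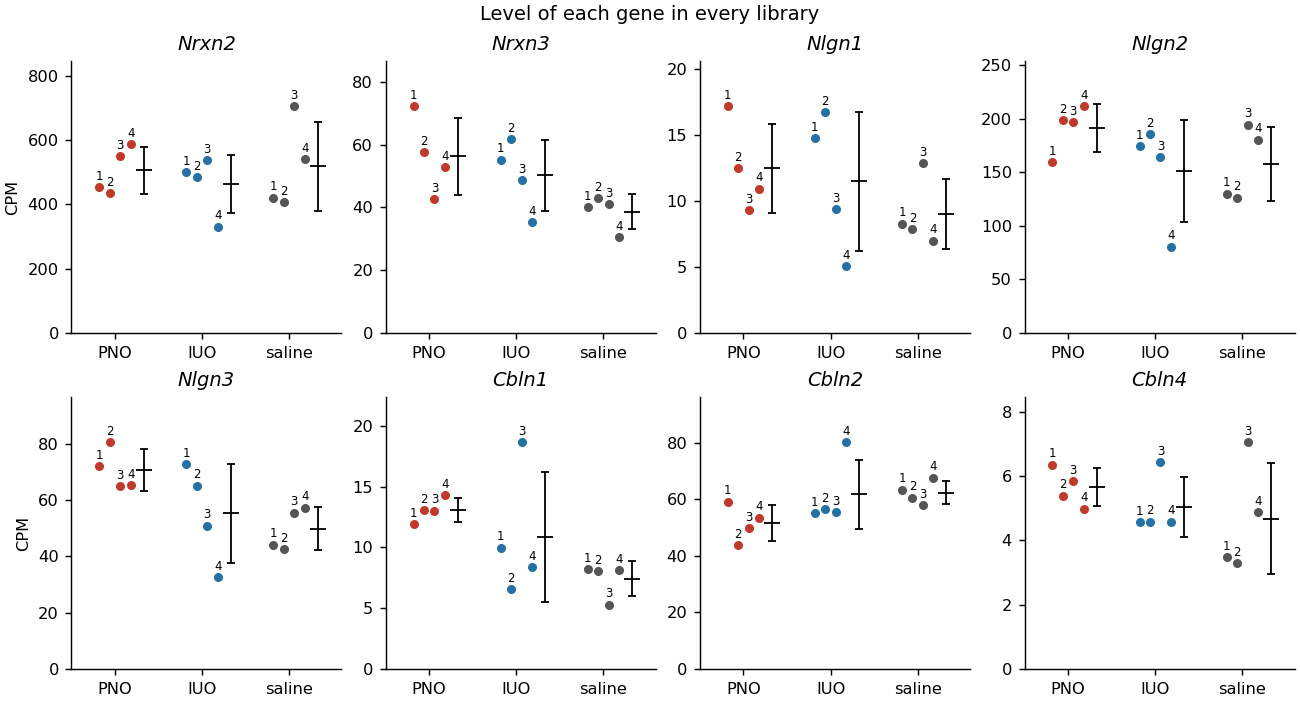
Level of each gene in CPM, scaled with library size factors, with 1 numbered point per library, and the mean with its SD for the 4 PNO, 4 IUO and 4 saline libraries. PNO libraries lie above all saline libraries for Nlgn3 and Cbln1, and IUO 4 is the lowest library for Nrxn2, Nlgn1, Nlgn2 and Nlgn3.

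The neurexins, on the presynaptic side, differed from each other in pattern. Nrxn2 (chromosome 1, 203735753 to 203842297, plus strand, in the coordinates of the deposited table, whose build is not given in the sources used here) measured 454, 434, 549 and 587 CPM in PNO 1 to 4, 499, 484, 536 and 330 CPM in IUO 1 to 4, and 420, 405, 704 and 541 CPM in saline 1 to 4. The 3 groups overlapped, the highest value was that of saline 3 and the lowest that of IUO 4. The log2 fold change was -0.03 (SE 0.19) for PNO against saline and -0.16 (SE 0.19) for IUO against saline (edgeR adjusted p = 0.961 and 0.998). With the marker scores as covariates the PNO value was -0.33.

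Nrxn3 (chromosome 6, 107641780 to 109272044, plus strand), which spans 1630265 bases and is the longest gene here, measured 72.3, 57.7, 42.7 and 52.9 CPM in PNO 1 to 4. It measured 55.3, 61.8, 48.8 and 35.3 CPM in IUO 1 to 4 and 40.0, 43.1, 41.0 and 30.6 CPM in saline 1 to 4. Of the PNO libraries 3 lay above every saline library and PNO 3 lay just under saline 2, and 3 of the 4 IUO libraries lay above every saline library. Nrxn3 had a log2 fold change of 0.54 (SE 0.18) for PNO against saline, with an unadjusted p of 0.0107 and an edgeR adjusted p of 0.355. In IUO against saline it was 0.38 (SE 0.18, adjusted p = 0.998), and the 2 comparisons share the saline libraries. With a trend on transcript length removed from each library, the PNO value was 0.38 (edgeR adjusted p = 0.403). With the striatal and bulb marker scores as covariates it was 0.18.

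The neuroligins, on the postsynaptic side, were low together in IUO 4. Nlgn1 (chromosome 2, 108257824 to 109002464, minus strand) measured 17.1, 12.5, 9.29 and 10.9 CPM in PNO 1 to 4, 14.7, 16.7, 9.38 and 5.08 CPM in IUO 1 to 4, and 8.26, 7.88, 12.9 and 6.99 CPM in saline 1 to 4. The groups overlapped, with saline 3 above 3 of the PNO libraries. Nlgn1 had the widest errors of the 8 genes, with a log2 fold change of 0.47 (SE 0.32) for PNO against saline and 0.35 (SE 0.32) for IUO against saline. Without PNO 1 the PNO value was 0.27 and without saline 3 it was 0.69. The IUO value was 0.21 without IUO 1, 0.11 without IUO 2, 0.60 without IUO 4 and 0.57 without saline 3 (edgeR adjusted p from 0.533 to 0.999). With the marker scores as covariates the PNO against saline value was 0.00 and the IUO against saline value was -0.0540.

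Nlgn2 (chromosome 10, 54544588 to 54558434, minus strand) measured 159, 199, 197 and 212 CPM in PNO 1 to 4, 174, 186, 164 and 80.6 CPM in IUO 1 to 4, and 130, 126, 195 and 181 CPM in saline 1 to 4. IUO 4 was the lowest of the 12 libraries and saline 1 and saline 2 came next, while saline 3 and saline 4 lay among the PNO values. The log2 fold change was 0.28 (SE 0.22) for PNO against saline and -0.06 (SE 0.22) for IUO against saline, and without IUO 4 the second was 0.15 (edgeR adjusted p = 0.763). Markers of GABAergic neurons, the cells that form the synapses where Nlgn2 sits, had a mean log2 CPM over 11 genes of 5.99 to 6.04 in PNO, 5.78 to 6.12 in IUO and 5.51 to 5.90 in saline libraries. Their summed level was 1339 to 1617 CPM in PNO, 1412 to 2179 CPM in IUO and 1390 to 1705 CPM in saline libraries. IUO 4 had the lowest mean of logs in IUO but the highest sum of the 12 libraries, since the list went both ways there. Sst (277 CPM), Vip (56.5 CPM), Cck (1201 CPM) and Npy (107 CPM) were at their highest of the 12 libraries in IUO 4, and Gad2 (5.31 CPM) and Lhx6 (5.36 CPM) at their lowest. Their part in the Nlgn2 values was not tested.

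Nlgn3 (chromosome X, 66429458 to 66451876, plus strand) measured 72.2, 80.5, 64.9 and 65.2 CPM in PNO 1 to 4, 72.7, 65.1, 50.9 and 32.6 CPM in IUO 1 to 4, and 44.2, 42.5, 55.5 and 57.3 CPM in saline 1 to 4. All 4 PNO libraries lay above all 4 saline libraries, while IUO ran from below to above the saline range. Groups parted in this direction for 2 of the 8 genes, Nlgn3 and Cbln1, against 5.17% of all tested genes, and for 0 of 8 in the opposite direction, against 4.66%. In IUO against saline 0 of 8 genes parted, beside 1.15% of all tested genes higher and 1.03% lower, and in PNO against IUO 0 of 8, beside 1.78% higher and 1.85% lower. Nlgn3 had a log2 fold change of 0.50 (SE 0.20) for PNO against saline, with an unadjusted p of 0.0243 and an edgeR adjusted p of 0.412. For PNO against IUO it was 0.35 (SE 0.20, adjusted p = 0.714), and without IUO 4 it was 0.17. Without IUO 4 the PNO against IUO value of Nlgn2 was 0.13, against 0.34 with it. With the striatal and bulb marker scores as covariates, the PNO against saline value was 0.19 and that of Nlgn2 was -0.25.

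**Figure D3:**
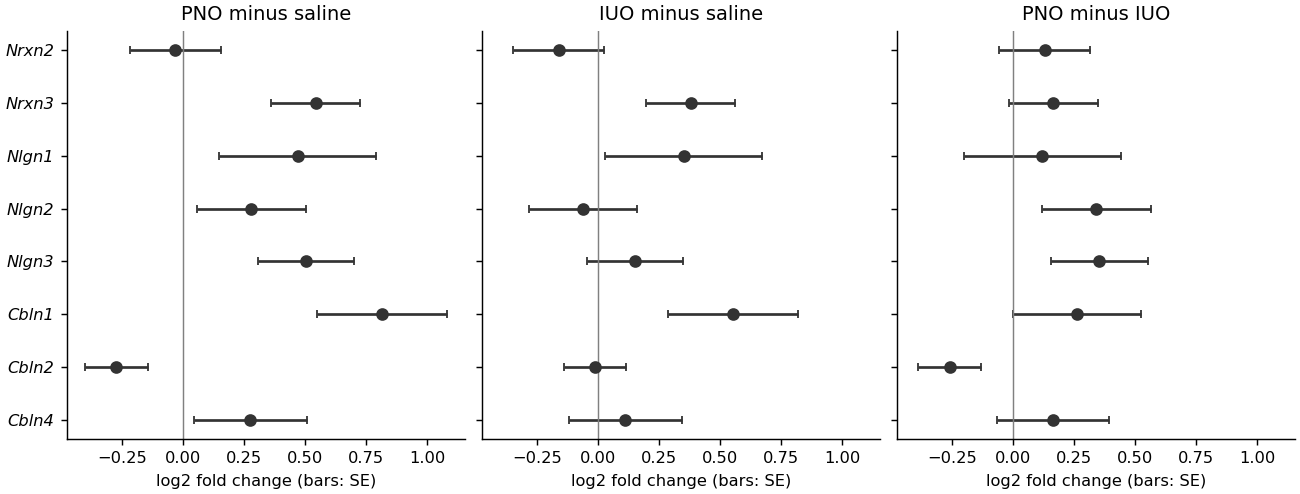
Log2 fold change of each gene from the edgeR fit of all 12 libraries, with the SE as bars, for PNO against saline, IUO against saline and PNO against IUO. Values run from -0.27 (Cbln2) to 0.81 (Cbln1) for PNO against saline, and none passed the threshold.

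The cerebellins had log2 fold changes of both signs in PNO against saline, none of them past the threshold. Cbln1 (chromosome 19, 19608716 to 19612572, plus strand) measured 11.9, 13.1, 13.0 and 14.3 CPM in PNO 1 to 4, 9.98, 6.56, 18.6 and 8.39 CPM in IUO 1 to 4, and 8.23, 8.05, 5.29 and 8.15 CPM in saline 1 to 4. All 4 PNO libraries lay above all 4 saline libraries, and IUO 3 was the highest of the 12 libraries. Cbln1 had the largest log2 fold change of the 8 genes, 0.81 (SE 0.27) for PNO against saline, with an unadjusted p of 0.00904 and an edgeR adjusted p of 0.355. Against saline, IUO gave 0.55 (SE 0.27, adjusted p = 0.998), and without IUO 3 it was 0.16.

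Cbln1 ran beside the olfactory bulb markers in most libraries. In the 4 libraries with raised bulb markers it measured 11.9 to 18.6 CPM, and in the other 8 it measured 5.29 to 13.1 CPM. PNO 2, at 13.1 CPM, was the exception: its bulb marker mean of 2.09 log2 CPM was as low as in saline libraries (2.01 to 2.22), and it was the library with the highest striatal marker mean. All 11 bulb markers were in the table, and their summed level was 148 to 400 CPM in PNO, 119 to 489 CPM in IUO and 141 to 166 CPM in saline libraries. Slc6a7, at 57.8 to 104 CPM, made up much of the saline sums. Unlike the rest of the list, it was highest in saline 3, where bulb markers were not raised. Eomes, a marker of bulb projection neurons, reached 11.3 CPM at most, and none of the 11 was at 0 in any library. With the bulb and striatal scores as covariates the PNO against saline value of Cbln1 was 0.16 (SE 0.31, against 0.27 in the main fit). Every PNO library had raised markers of bulb or striatum, but in saline only saline 2 did. The covariates thus overlap with the groups, so for each gene that fit cannot fully separate marker content from exposure. Without the 4 libraries with raised bulb markers the Cbln1 value was 0.80, which rests on PNO 2 as the only PNO library. That lone library is assumed to vary like the other groups.

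Markers of the cerebellum were checked because Cbln1 is abundant there, and they differed in level. Gabra6, a cerebellar granule cell gene, reached 0.653 CPM at most and Pcp2, a Purkinje cell gene, reached 0.297 CPM at most. Of the 10 cerebellar markers 9 were in the table, with sums of 102 to 114 CPM in PNO, 99.0 to 128 CPM in IUO and 105 to 124 CPM in saline libraries, most of which came from Calb1, a gene that cortex also expresses. The transcription factor genes Zic1, at 8.63 to 17.8 CPM, and Zic2, at 10.5 to 16.6 CPM, were present in every library at levels like that of Cbln1, and their part in the Cbln1 values was not tested. The 10 thalamic markers summed to 57.9 to 63.8 CPM in PNO, 62.2 to 69.6 CPM in IUO and 60.5 to 65.3 CPM in saline libraries.

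**Figure D4:**
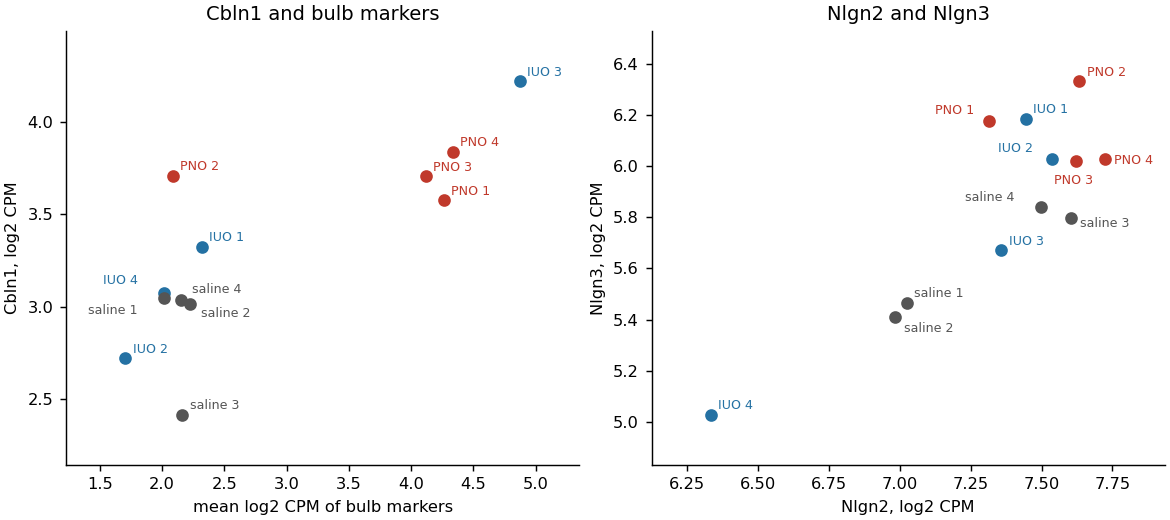
Left, Cbln1 (log2 CPM) against the mean log2 CPM of 11 bulb markers, and right, Nlgn3 against Nlgn2 (log2 CPM), with 1 labelled point per PNO, IUO or saline library. PNO 2 has high Cbln1 at a bulb mean of 2.09, and IUO 4 is the lowest point for both neuroligins.

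Cbln2 (chromosome 18, 79942590 to 79947855, plus strand), the most abundant cerebellin, measured 59.2, 43.7, 49.8 and 53.6 CPM in PNO 1 to 4, 55.0, 56.5, 55.5 and 80.1 CPM in IUO 1 to 4, and 63.4, 60.6, 57.9 and 67.7 CPM in saline 1 to 4. Of the PNO libraries 3 lay below every saline library, and PNO 1 lay between saline 3 and saline 2. IUO 4, the library with the lowest neuroligin values, had the highest Cbln2 value. Cbln2 had a log2 fold change of -0.27 (SE 0.13) for PNO against saline (unadjusted p = 0.0519, edgeR adjusted p = 0.457) and of -0.01 (SE 0.13) for IUO against saline. The PNO against saline value was 0.0473 with the marker scores as covariates and -0.53 without the libraries with raised bulb markers. For PNO against IUO it was -0.26 (SE 0.13, adjusted p = 0.714), and without IUO 4 it was -0.11.

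Cbln4 (chromosome 3, 160799587 to 160807143, minus strand), which somatostatin interneurons express in mouse cortex, measured 6.36, 5.39, 5.85 and 4.99 CPM in PNO 1 to 4, 4.56, 4.58, 6.45 and 4.58 CPM in IUO 1 to 4, and 3.47, 3.30, 7.04 and 4.87 CPM in saline 1 to 4. The saline libraries spanned the whole range, since saline 3 was the highest and saline 2 the lowest of the 12. The log2 fold change was 0.27 (SE 0.23) for PNO against saline and 0.11 (SE 0.23) for IUO against saline (edgeR adjusted p = 0.665 and 0.998). The PNO value was 0.16 without saline 1, 0.14 without saline 2 and 0.54 without saline 3 (edgeR adjusted p = 0.832, 0.885 and 0.505), and without saline 3 the IUO value was 0.38.

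As a list, 6 of the 8 genes had a positive log2 fold change for PNO against saline, with a median of 0.37, beside 51.2% positive and a median of 0.01 over all tested genes. For IUO against saline 5 of 8 were positive with a median of 0.13, beside 56.4% and 0.02. For PNO against IUO 7 of 8 were positive with a median of 0.16, beside 49.2% and -0.00. The PNO against IUO values ran from -0.26 (Cbln2) to 0.35 (Nlgn3), with edgeR adjusted p values from 0.714 to 0.937. The deposited counts and FPKM values together imply transcript lengths of 2537 (Cbln2) to 10322 bases (Nrxn3) for these genes, against a median of 3111 bases over tested genes. Log2 CPM followed length differently from library to library, with a slope per doubling of length of -0.02 to 0.06 in PNO, -0.10 (IUO 4) to 0.05 in IUO and -0.04 to 0.00 in saline libraries.

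**Figure D5:**
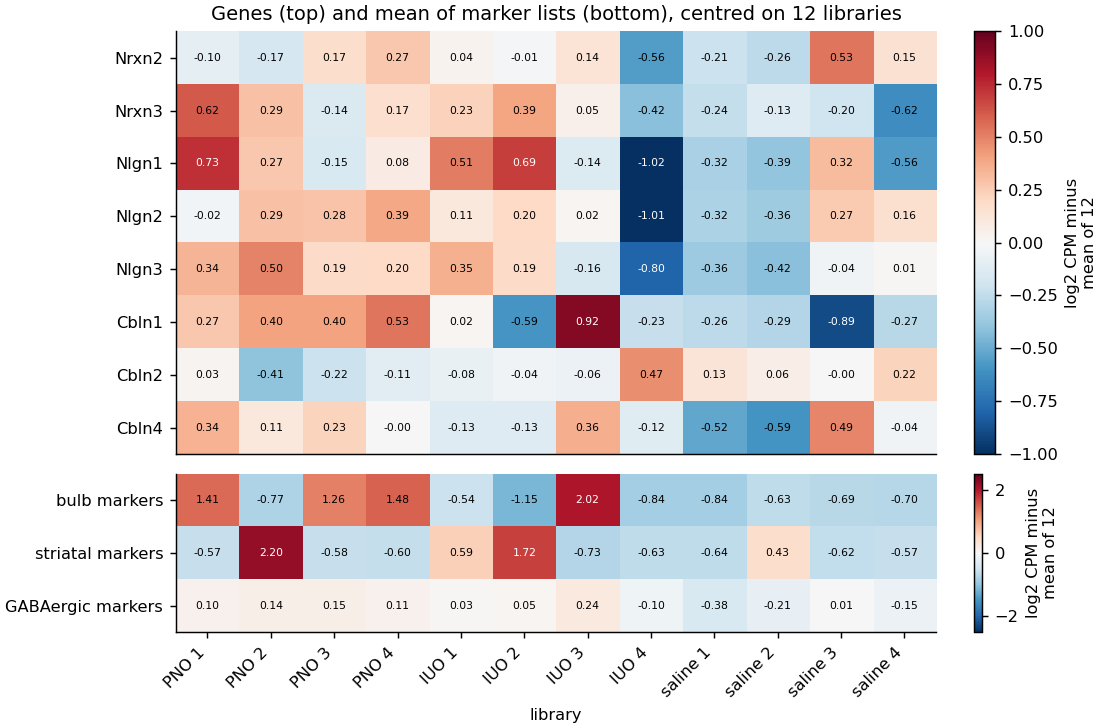
Log2 CPM of each gene (top) and mean log2 CPM of 3 marker lists (bottom) in the 12 libraries, each row centred on its mean over all libraries. IUO 4 is low for all 3 neuroligins and both neurexins and high for Cbln2, and the bulb and striatal rows show the libraries where those markers are raised.

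Some of the 8 genes moved together from library to library. Of the 28 pairs, 6 had a permutation p under 0.05 for Pearson's r after Benjamini-Hochberg adjustment over the pairs (100000 permutations, two-sided, n = 12 libraries). The share of pairs of other tested genes that reach this level was not counted, so whether the 6 pairs are particular to these genes is not known. Nlgn2 and Nlgn3 had a Pearson's r of 0.856 and a Spearman's rho of 0.657 (permutation p = 0.000830 and 0.0237, adjusted p = 0.00840 and 0.0948). Without the 2 libraries farthest from the median of Nlgn2, IUO 4 among them, r was 0.586. Nrxn3 and Nlgn1 had an r of 0.857 and a rho of 0.846 (permutation p = 0.000290 and 0.000730, adjusted p = 0.00812 and 0.0204), and r was 0.827 without 2 libraries. Cbln2 ran against Nlgn3, with an r of -0.796 and a rho of -0.706 (permutation p = 0.00190 and 0.0129, adjusted p = 0.0106 and 0.0602), and r was -0.632 without 2 libraries. Nlgn2 and Cbln2 had an r of -0.783 and a rho of -0.776 (permutation p = 0.00287 and 0.00454, adjusted p = 0.0134 and 0.0570). That r was -0.547 without 2 libraries. The other pairs with an adjusted Pearson p under 0.05 were Nrxn2 with Nlgn2 (r = 0.810, 0.719 without 2 libraries) and Nlgn1 with Nlgn3 (r = 0.808, 0.643 without 2 libraries). Adjusted Spearman p values were under 0.05 for Nrxn3 with Nlgn1 only. Some libraries share a group, a litter and the differences in marker content given above, so they may not be 12 independent points.

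RefSeq promoters on the GRCr8 build, 250 bases before to 50 bases after a gene's start, were on hand for 5 of the 8 genes. The 3 below are shown because Nlgn2 and Nlgn3 moved together by Pearson's r and Cbln2 ran against both, with the limits given above. Capitals mark the GC box GGGCGG on either strand.
Nlgn2: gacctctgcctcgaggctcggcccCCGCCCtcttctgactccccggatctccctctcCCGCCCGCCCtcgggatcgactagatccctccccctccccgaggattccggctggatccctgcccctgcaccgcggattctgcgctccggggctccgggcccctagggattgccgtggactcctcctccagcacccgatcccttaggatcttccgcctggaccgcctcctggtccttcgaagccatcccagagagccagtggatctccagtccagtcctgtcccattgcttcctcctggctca
Nlgn3: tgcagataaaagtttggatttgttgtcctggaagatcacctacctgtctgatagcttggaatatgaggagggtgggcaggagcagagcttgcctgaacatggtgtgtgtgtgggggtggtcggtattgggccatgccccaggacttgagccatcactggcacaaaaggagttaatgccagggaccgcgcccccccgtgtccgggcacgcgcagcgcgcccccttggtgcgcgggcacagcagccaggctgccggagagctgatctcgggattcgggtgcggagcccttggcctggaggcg
Cbln2: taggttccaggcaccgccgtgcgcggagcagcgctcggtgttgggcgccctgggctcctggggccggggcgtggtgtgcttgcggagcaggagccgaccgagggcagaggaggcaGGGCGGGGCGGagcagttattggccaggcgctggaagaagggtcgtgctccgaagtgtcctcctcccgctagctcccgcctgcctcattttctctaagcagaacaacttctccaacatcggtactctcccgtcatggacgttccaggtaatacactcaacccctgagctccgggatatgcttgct
They lie at chr10:55056529-55056828 on the minus strand (Nlgn2), chrX:70469228-70469527 on the plus strand (Nlgn3) and chr18:82215953-82216252 on the plus strand (Cbln2).

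All 3 promoters were rich in G and C, with 67.3% for Nlgn2, 61.7% for Nlgn3 and 64.0% for Cbln2, against a median of 51.7% over 33469 rat promoters of the same length. They held 20, 16 and 23 CpG pairs in that order, against a median of 7. The GC box GGGCGG stood 3 times in the Nlgn2 window, 2 times in that of Cbln2 and in no place in that of Nlgn3, and 33.1% of all promoters hold it. The TATA box TATAAA stood in none of the 3 windows (14.2% of all promoters hold it). The short core TGACG of the cyclic AMP response element, searched like the others on both strands, stood once in the Cbln2 window and not in the others (21.2% of all promoters hold it).

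Each gene was also set beside all other tested genes, and the 3 with the highest Pearson's r of log2 CPM over the 12 libraries were taken as the most alike. For Nlgn3 these were Kalrn (r = 0.990), Grid1 (r = 0.974) and Nmnat2 (r = 0.969). For Nlgn2 they were Sorcs2 (r = 0.980), Dvl3 (r = 0.976) and Sdc3 (r = 0.975), and those of Nlgn1 included Negr1 (r = 0.966) and Gabrb2 (r = 0.965). Those of Nrxn2 included Sh2b1 (r = 0.960) and Fbxl19 (r = 0.957). Nrxn3 was most like Ncoa7 (r = 0.968), the unnamed gene ENSRNOG00000067071 (r = 0.962) and Klhl34 (r = 0.958). Cerebellins had lower values for their closest genes in 2 cases: Cbln1 with Lime1 (r = 0.919), Tmem131l (r = 0.910) and Lrrc23 (r = 0.882), and Cbln4 with Arhgef1 (r = 0.889), Elfn1 (r = 0.869) and AABR07058412.1 (r = 0.869). Cbln2 was most like Elavl4 (r = 0.957), Dnajc1 (r = 0.948) and the unnamed gene ENSRNOG00000068391 (r = 0.941). These r values were picked as the highest of all tested genes and carry no p.

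The wider family of synaptic organisers was read from 3 lists: neurexin ligands and related partners (28 genes beside the 8, 22 of them tested), intracellular partners (11, all tested) and other trans-synaptic organisers (39, of which 36 were tested). Of these 69 tested genes edgeR called 0 higher and 0 lower in each of the 3 comparisons. For PNO against saline 48 of the 69 had a positive log2 fold change, with a median of 0.13, beside 51.2% of all tested genes. At an unadjusted p under 0.05 in edgeR, 11 were higher and 0 lower, beside 6.82% of all tested genes higher and 11.0% in either direction. For IUO against saline 45 of 69 were positive with a median of 0.06, beside 56.4% of all tested genes. At that level 2 were higher and 1 lower, beside 2.31% of all tested genes higher and 4.02% in either direction. Between PNO and IUO 47 of 69 were positive with a median of 0.07, beside 49.2% of all tested genes. There 3 were higher and 1 lower, beside 3.06% of all tested genes higher and 6.73% in either direction.

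Among the 4 of these genes with the smallest unadjusted p for PNO against saline was the delta receptor Grid1, the postsynaptic partner of cerebellins. Grid1 measured 43.2, 50.5, 40.3 and 43.5 CPM in PNO 1 to 4, 43.7, 39.5, 33.5 and 24.3 CPM in IUO 1 to 4, and 30.5, 32.5, 34.0 and 35.7 CPM in saline 1 to 4. All PNO libraries lay above all saline libraries, and IUO 4 was again the lowest of the 12. Grid1 had a log2 fold change of 0.42 (SE 0.15) for PNO against saline (edgeR adjusted p = 0.380). C1ql2, a secreted protein of the same C1q family as cerebellins, measured 3.66 ± 0.571 CPM in PNO and 1.72 ± 0.172 CPM in saline (SD, n = 4 each). Its fold change was 1.09 on the log2 scale (SE 0.27, edgeR adjusted p = 0.305). The other two were the teneurin Tenm2, at 26.0 ± 8.22 CPM in PNO and 16.0 ± 1.06 CPM in saline, and the netrin-G gene Ntng1, at 19.9 ± 2.50 CPM in PNO and 12.7 ± 3.99 CPM in saline (edgeR adjusted p = 0.326 and 0.355).

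Between IUO and saline the 4 smallest unadjusted p values belonged to C1ql2, Tenm2, Ntng2 and Flrt3 (edgeR adjusted p = 0.998 for each). C1ql2 measured 1.56, 4.03, 3.78 and 2.17 CPM in IUO 1 to 4, and 1.55 to 1.96 CPM in saline libraries. Tenm2 was at 22.6 ± 5.07 CPM in IUO and 16.0 ± 1.06 CPM in saline, and its groups did not overlap, as was so in the same direction for 1.15% of all tested genes. Ntng2 was at 27.0 ± 7.43 CPM in IUO and 35.9 ± 1.64 CPM in saline, and Flrt3 at 15.5 ± 2.19 CPM in IUO and 13.1 ± 0.693 CPM in saline.

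For PNO against IUO they belonged to Gphn, Adgrb3, Grid1 and Ptprf (edgeR adjusted p = 0.714 for each). Gphn, the scaffold gephyrin of inhibitory synapses, measured 10.1, 12.2, 6.49 and 8.92 CPM in PNO 1 to 4, and 48.4, 9.34, 43.3 and 19.6 CPM in IUO 1 to 4. Gphn measured 9.09, 39.0, 2.65 and 38.1 CPM in saline 1 to 4, and its PNO and IUO libraries overlapped. Adgrb3 measured 90.3 ± 7.16 CPM in PNO and 78.8 ± 7.89 CPM in IUO, and Ptprf, a receptor phosphatase, measured 108 ± 10.3 CPM in PNO and 77.5 ± 27.4 CPM in IUO.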

How the data were processed

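Poly(A) RNA of prefrontal cortex from 12 rats was sequenced in stranded libraries, per the labels' protocols. HISAT2 and StringTie are named in the submitters' processing notes. No source used here states versions, genome build or annotation. The table deposited by the authors holds a raw count and an FPKM value (fragments scaled by transcript length and library size) per gene and library. Genes averaging 0.5 FPKM or more were tested with edgeR 4.0.16 (quasi-likelihood, TMM factors, R 4.3.3) on the counts, with all 12 libraries in 1 model of 3 groups and Benjamini-Hochberg adjustment over 14170 genes (two-sided, threshold 0.05). The code was tested on simulated data. CPM values are counts scaled with the TMM factors. Correlations and likeness used log2 CPM with a prior count of 2. DESeq2 1.42.0 and limma 3.58.1 on log2(FPKM + 0.5) were alternatives. The 8 genes, the pathway and marker lists and the rule for named genes were chosen with earlier results of these data known. The text names all 8 genes, the 4 listed pathway genes with the smallest unadjusted p per comparison and the 3 genes most like each of the 8, of which 1 for Nrxn2 and 1 for Nlgn1 are not reported here. P values measure only the spread between these animals.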

Additional observations from a re-analysis of the deposited data

Results flagged for a closer look

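Each of the 24 groups of 4 libraries (8 genes in 3 groups) was checked for an extreme library on log2 CPM. The gap between the most extreme library and its nearest neighbour was divided by the whole range of the group. By this measure 4 groups passed Dixon's critical value for 4 samples. Gaps taken from the CPM values printed below would differ. Chance alone flags about 1 in 20 groups. Nlgn2 in IUO 4 had a gap of 0.851 of the range, with 6.33 log2 CPM (80.6 CPM) in that library. In the other IUO libraries it was at 7.36 to 7.54 log2 CPM (164 to 186 CPM). Cbln2 in IUO 4 had a gap of 0.929, with 80.1 CPM in that library and 55.0 to 56.5 CPM in the other IUO libraries. Cbln4 in IUO 3 had a gap of 0.985, with 6.45 CPM in that library and 4.56 to 4.58 CPM in the others. Cbln1 in saline 3 had a gap of 0.949, with 5.29 CPM in that library and 8.05 to 8.23 CPM in the other saline libraries.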

How the results depend on the processing

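None of the 8 genes was called in any comparison under any of the alternatives run, and with the replicate number as a block the count called was 0 in each comparison too. The replicate numbers were not taken as pairs in the main test. All 12 same-numbered pairs had a positive correlation of deviations (0.0153 to 0.411), and 4 of them were over 0.1. Pairs with different numbers ran from -0.302 (PNO 3 with IUO 2) to 0.203 (PNO 3 with IUO 4). In both other groups, 3 of 12 libraries matched best with their own number. Whether the numbers mark something that libraries share was not tested. The smallest adjusted p under an alternative was 0.0675, for Cbln1 in PNO against saline when edgeR compared these 2 groups only. Cbln4 has no value with a mean FPKM of at least 2. For PNO against saline, Nrxn2 turned to 0.0174, 0.0172 and 0.0169 with limma at pseudocounts of 0.1, 0.5 and 1, and with the marker scores as covariates Nlgn2 turned to -0.25 and Cbln2 to 0.0473. In IUO against saline, the covariates gave -0.0540 for Nlgn1, -0.10 for Nlgn3 and 0.18 for Cbln2. Without the libraries with raised striatal markers Nlgn1 was -0.37, Nlgn3 -0.33 and Cbln2 0.11, and without those with raised bulb markers Cbln2 was 0.0201 and Cbln4 -0.0451. For PNO against IUO, Nrxn2 was -0.0155 with the covariates and -0.0131 without the raised bulb libraries, and Cbln1 was -0.0491 without the raised striatal libraries. The cause was not tested. Leaving out each library in turn gave 0 to 0 calls, and log2 fold changes that changed sign were, for PNO against saline, Nrxn2 at -0.13 to 0.15. For IUO against saline they were Nrxn2 at -0.26 to 0.0214, Nlgn2 at -0.18 to 0.15, Nlgn3 at -0.00985 to 0.33, Cbln2 at -0.16 to 0.0382 and Cbln4 at -0.0291 to 0.38. For PNO against IUO they were Nrxn2 at -0.00171 to 0.20 and Nlgn1 at -0.13 to 0.36. For PNO against saline, those that kept their sign ranged over 0.39 to 0.64 for Nrxn3, 0.27 to 0.69 for Nlgn1, 0.19 to 0.40 for Nlgn2, 0.43 to 0.56 for Nlgn3, 0.68 to 0.87 for Cbln1, -0.35 to -0.20 for Cbln2 and 0.14 to 0.54 for Cbln4. Each group has 4 animals from 2 dams, and how far counting error and differences between animals each limit the precision was not tested.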
